A study of Mus musculus with 12 samples.

Results

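The 8 genes described here are Vsig4, Folr2, Cbr2, Fcna, Pf4, Selenop, Fxyd2 and Retnla. They were listed as identity genes of resident macrophages of the heart and taken by symbol from a table of 55487 genes. That name belongs to the list, and Pf4 did not pass the test as higher in resident cells here. All 8 had a row in the table and all 8 passed the filter on low counts. They were measured in macrophages sorted from mouse hearts 2 days after I/R injury, that is ischemia by tying off a coronary artery and then reperfusion by releasing it. The hosts were CD45.2 Mx1Cre Myb flox/flox mice, in which injections of polyI:C switch on the Cre of the interferon-responsive Mx1 promoter, delete Myb and deplete the blood-forming cells of the marrow without irradiation. They then received bone marrow of congenic CD45.1 mice and underwent I/R injury 4 weeks later. Animals were 10 to 16 weeks old and of both sexes. Macrophages that carry CD45.1 therefore came from the transplanted marrow and are called recruited, whereas those that carry CD45.2 came from the host and are called resident. A host cell that survived the deletion of Myb also carries CD45.2.

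Each population was sorted from the remote zone (RZ) and from the ischemic zone of the infarct (IZ), which gave 4 groups of 3 libraries (CD45.1 RZ, CD45.1 IZ, CD45.2 RZ and CD45.2 IZ), each from about 1000 cells. All 4 groups came from hosts with the deletion, the polyI:C and the injury, and no uninjured group was analysed here. No label ties a library to an animal, so the p-values measure the spread between libraries. The groups may share hearts, and the main test treats all libraries as unpaired. Libraries held 33253340 to 63435529 counts, and levels are given in CPM, counts per 1000000 of the library size after TMM scaling. A list of 6 macrophage markers held Ptprc (CD45), Itgam (CD11b), Adgre1 (F4/80) and Fcgr1 (CD64), which served the sort, and Csf1r and Cd68. Their summed level lay between 6792 and 9251 CPM over the 12 libraries. Single markers differed between the populations at an adjusted p under 0.05 in edgeR. In each zone Adgre1 and Csf1r were higher in CD45.2 (16.2% of all genes in RZ, 12% in IZ). Itgam and Fcgr1 were lower (15.8% and 7.56%). Libraries S104 to S107 (each group's replicate 1) were set apart from the rest in an earlier look at the whole table, and results that change without them are given both ways. Marker genes of other cells were found as well: the 17 heart muscle genes summed to 20.7 to 32.4 CPM in the 6 CD45.1 libraries and to 54.9 to 153 CPM in the 6 CD45.2 libraries, and the 10 fibroblast genes to 6.74 to 168 and 19.3 to 1210 CPM. The 12 neutrophil genes summed to 268 to 470 CPM in CD45.1 and to 143 to 316 CPM in CD45.2 libraries, and the 7 genes of serosal cavity macrophages, which also use some of the genes described here, to 20.1 to 25.3 and 13.03 to 42.5 CPM. Their part in the results was not tested. The 5 genes of fat cells and the 5 of mesothelium each summed to less than 1 CPM in every library.

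Macrophages settle in the heart before birth and maintain themselves there, while monocytes from the bone marrow enter in large numbers after injury and become macrophages in place. Resident cells are known for genes of debris uptake, complement and nutrient handling, many of which depend on signals of the tissue and are low in newly arrived cells. The macrophage lineage as a whole relies on the transcription factor PU.1, and factors of the MAF family are linked with the mature tissue state.

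The 8 products belong to different families. Vsig4 encodes a receptor of the immunoglobulin superfamily that binds fragments of complement C3, and Folr2 encodes folate receptor beta. Fcna encodes ficolin A, a secreted lectin that starts the lectin pathway of complement. Cbr2 encodes a carbonyl reductase, Selenop the selenium carrier of plasma and Fxyd2 the gamma subunit that modulates the sodium pump. Pf4 encodes platelet factor 4 (CXCL4), a chemokine stored in platelets and also made by macrophages, and Retnla encodes RELM alpha, a secreted protein induced by interleukin 4 and interleukin 13.

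In GRCm38 the genes lie on 8 different chromosomes. Vsig4 (ENSMUSG00000044206) spans chrX:96247203-96293438 on the minus strand, Folr2 (ENSMUSG00000032725) chr7:101839988-101857194 on the minus strand, Cbr2 (ENSMUSG00000025150) chr11:120729489-120732114 on the minus strand and Fcna (ENSMUSG00000026938) chr2:25624666-25628030 on the minus strand. Pf4 (ENSMUSG00000029373) spans chr5:90772435-90773383, Selenop (ENSMUSG00000064373) chr15:3268547-3280508, Fxyd2 (ENSMUSG00000059412) chr9:45399669-45410278 and Retnla (ENSMUSG00000061100) chr16:48842551-48844461, all on the plus strand. Exons of 3 of the 8 overlap a gene of the opposite strand. Folr2 shares 975 of its 1546 exon bases with Gm10602, Selenop shares 439 of 2842 with Ccdc152, and Fcna shares 90 of 1374 with Fcnaos. Pairs were counted for every gene they overlapped and the strand was not used, so the counts of these 3 genes can include reads of their partners. The other 5 share no exon bases with another gene.

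Promoters of 7 of the 8 genes were found in the RefSeq set on GRCm38.p6 (10 windows of 250 bases before and 50 after a start site). The letters GAGGAA, the core bound by PU.1, occurred on either strand in 7 of the 10 windows, which belong to 6 of the 7 genes, and in 28.28% of all 32851 windows of that length. A MAF half-site, TGCTGA, occurred in 6 of the 10 windows and 5 of the 7 genes, and in 19.48% of all windows. The AP-1 site TGACTCA was found in 1 window, of Folr2 (5.2% of all windows), TATAAA in 2 windows, of Retnla and Selenop (13.62%), and the E-box CACGTG in 0 of 10 (7.15%). Windows of Selenop overlap each other, and a match of letters does not show a binding site. The 250 bases before the start site are shown 5′ to 3′ on the gene's strand for Vsig4 and Retnla, the genes with the widest gap between the populations, for Fcna, which held the most matches, and for Pf4, whose level did not follow the others, with matches to the 5 motifs on either strand in capitals.
Vsig4 (chrX:96293439-96293688, minus strand): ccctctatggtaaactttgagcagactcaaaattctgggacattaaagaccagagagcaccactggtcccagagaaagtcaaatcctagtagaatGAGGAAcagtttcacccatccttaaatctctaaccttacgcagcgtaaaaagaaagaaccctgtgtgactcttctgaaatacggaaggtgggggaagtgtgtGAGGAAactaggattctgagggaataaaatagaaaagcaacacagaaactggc
Fcna (chr2:25627975-25628224, minus strand): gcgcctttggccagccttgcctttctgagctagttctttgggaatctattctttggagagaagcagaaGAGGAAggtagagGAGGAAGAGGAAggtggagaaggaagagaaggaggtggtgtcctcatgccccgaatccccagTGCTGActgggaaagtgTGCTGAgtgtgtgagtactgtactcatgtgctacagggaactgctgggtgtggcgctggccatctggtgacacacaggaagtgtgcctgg
Retnla (chr16:48842359-48842608, plus strand): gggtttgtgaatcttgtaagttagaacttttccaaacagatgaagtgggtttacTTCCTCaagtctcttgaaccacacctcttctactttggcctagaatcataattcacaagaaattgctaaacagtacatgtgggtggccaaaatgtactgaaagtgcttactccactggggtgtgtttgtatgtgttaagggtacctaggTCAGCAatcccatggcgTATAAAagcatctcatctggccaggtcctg
Pf4 (chr5:90772185-90772434, plus strand): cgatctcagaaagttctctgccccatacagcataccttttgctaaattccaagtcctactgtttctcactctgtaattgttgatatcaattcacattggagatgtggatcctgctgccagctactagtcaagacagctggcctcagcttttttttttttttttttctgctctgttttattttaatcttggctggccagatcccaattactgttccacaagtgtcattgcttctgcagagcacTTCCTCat

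The Fcna window holds GAGGAA at -182, -169 and -163 from the start site and TGCTGA at -107 and -90, and a further GAGGAA at 42 after the start, outside the bases shown. Vsig4 holds GAGGAA at -155 and -53, and TGCTGA on the other strand at 24 after the start, also outside the bases shown. Retnla holds GAGGAA at -196 and TGCTGA at -47 on the other strand and TATAAA at -30, and Pf4 holds GAGGAA at -8 on the other strand and no MAF half-site.

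Resident and recruited macrophages differed in 7 of the 8 genes in both zones. Vsig4, Folr2, Cbr2, Fcna, Selenop, Fxyd2 and Retnla were higher in resident cells, in RZ by 2.91-fold (Selenop) to 193-fold (Vsig4) and in IZ by 3.48-fold (Selenop) to 1297-fold (Vsig4). Pf4 passed the test in neither zone. Among all 18773 genes tested with edgeR's quasi-likelihood test, 16.2% were higher in CD45.2 and 32% differed in either direction at an adjusted p under 0.05 in RZ, against 12% and 19.5% in IZ. The groups lay apart without overlap, CD45.2 higher, for these 7 genes in both zones, as they did for 21.9% of all genes in RZ and 21.8% in IZ. The median log2 fold change of the 8 genes was 3.66 in RZ and 4.28 in IZ, beside 0.044 over all genes in either zone. These 8 genes were chosen with earlier results of these data known, so the counts and medians are not independent evidence. In bulk RNA, fewer cells with a transcript and less of it per cell cannot be told apart.

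**Figure D1:**
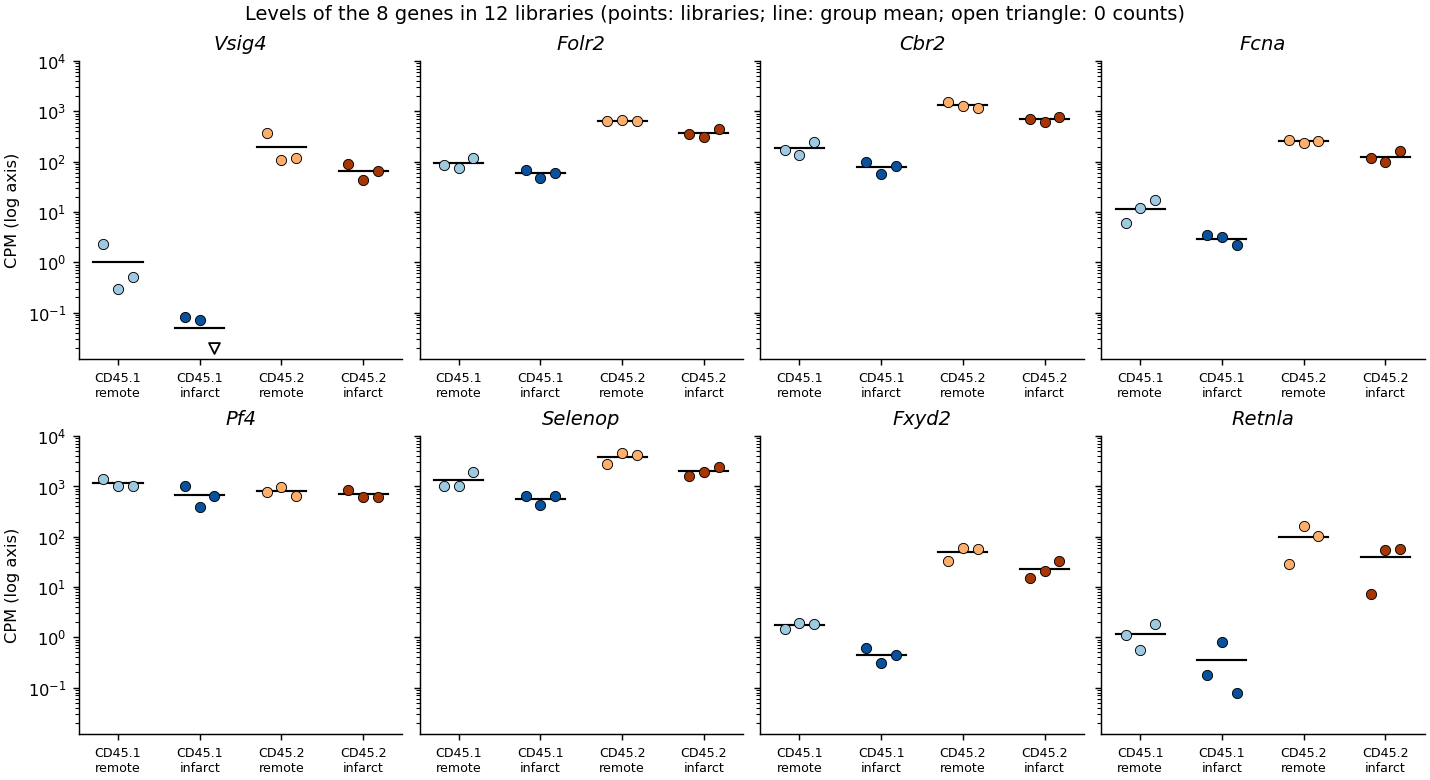
Level of each gene in CPM (log axis) in the 3 libraries of each of the 4 groups, with the group mean as a line and a library without a count as an open triangle. For 7 genes the CD45.2 libraries lie above the CD45.1 libraries of the same zone, as for Fcna at 99.1 to 273 against 2.16 to 17.0 CPM, whereas the groups of Pf4 lie close together.

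Vsig4 showed the widest separation. Its level was 365, 105.9 and 120 CPM in the CD45.2 RZ libraries (replicates 1, 2 and 3) and 90.0, 43.6 and 65.2 CPM in CD45.2 IZ. In CD45.1 RZ it was 2.28, 0.300 and 0.504 CPM, and in CD45.1 IZ 0.0805, 0.0705 and 0 CPM. Recruited macrophages of IZ thus held 7 Vsig4 counts in 3 libraries together, against 9976 in the resident ones. The log2 fold change was 7.59 ± 0.797 (SE, adjusted p = 3.73e-05) in RZ and 10.34 ± 1.05 (adjusted p = 5.34e-05) in IZ. From the pooled counts the ratio in IZ was 1419, with an interval of 688 to 3530 that covers counting error only. Both extremes of RZ lay in replicate 1, which had the highest Vsig4 level of CD45.2 RZ and of CD45.1 RZ. The log2 fold change there was 6.78 without CD45.2 RZ replicate 1 and 8.95 without CD45.1 RZ replicate 1, and in IZ 9.69 without CD45.1 IZ replicate 3.

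Fcna, the other gene tied to complement, varied little among the CD45.2 RZ libraries, with a coefficient of variation of 8.70%. It lay at 273, 231 and 263 CPM in CD45.2 RZ and at 118, 99.1 and 160 CPM in CD45.2 IZ, against 5.96, 11.9 and 17.0 CPM in CD45.1 RZ and 3.42, 3.13 and 2.16 CPM in CD45.1 IZ. The log2 fold change was 4.46 ± 0.351 (adjusted p = 4.72e-06) in RZ and 5.44 ± 0.374 (adjusted p = 4.07e-06) in IZ. Fcnaos, which shares exon bases with Fcna, had 33216 counts over all libraries against 61861 for Fcna.

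Folr2 and Cbr2 were detected in every library and were several-fold higher in resident cells. Folr2 lay at 630, 677 and 648 CPM in CD45.2 RZ, with a coefficient of variation of 3.68%, and at 357, 314 and 446 CPM in CD45.2 IZ. Its recruited levels were 84.1, 76.0 and 121 CPM in RZ and 68.7, 48.0 and 58.8 CPM in IZ. CD45.2 macrophages were thus 6.96-fold higher in RZ (log2 fold change 2.80 ± 0.205, adjusted p = 3.01e-06) and 6.37-fold higher in IZ (2.67 ± 0.204, adjusted p = 7.89e-06). Gm10602, which covers most of the Folr2 exon bases, carried 176964 counts against 181966 for Folr2, so the Folr2 values cannot be told apart from those of its partner.

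Cbr2 lay at 1543, 1289 and 1180 CPM in CD45.2 RZ and at 691, 624 and 784 CPM in CD45.2 IZ. In CD45.1 macrophages it was 169, 135 and 245 CPM in RZ and 100.3, 58.1 and 81.9 CPM in IZ. The difference was 7.31-fold in RZ (log2 fold change 2.87 ± 0.252, adjusted p = 1.07e-05) and 8.73-fold in IZ (3.13 ± 0.255, adjusted p = 1.29e-05). The spacing of the 4 groups was thus much the same as for Folr2.

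Selenop showed the smallest difference of the 7 genes. Its values were 2812, 4603 and 4308 CPM in CD45.2 RZ, 1613, 1981 and 2408 CPM in CD45.2 IZ, 1034, 1020 and 1975 CPM in CD45.1 RZ and 646, 428 and 650 CPM in CD45.1 IZ. The groups did not overlap within a zone, although the lowest CD45.2 IZ library lay below the highest CD45.1 RZ library. The log2 fold change was 1.54 ± 0.299 (adjusted p = 0.00245) in RZ and 1.80 ± 0.301 (adjusted p = 0.00165) in IZ. With the heart muscle level of each library as a covariate the values were 0.82 (adjusted p = 0.28) and 1.12 (adjusted p = 0.154), and Selenop was no longer called. That covariate is itself higher in the CD45.2 libraries and lowered the calls over all genes from 6012 to 1597 in RZ. The part of muscle RNA in the Selenop difference was not tested.

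Fxyd2 was separated widely in both zones. It lay at 33.7, 59.6 and 57.1 CPM in CD45.2 RZ and at 15.01, 21.3 and 33.4 CPM in CD45.2 IZ, against 1.495, 1.93 and 1.87 CPM in CD45.1 RZ and 0.604, 0.306 and 0.443 CPM in CD45.1 IZ. CD45.2 macrophages were 28.3-fold higher in RZ (log2 fold change 4.82 ± 0.352, adjusted p = 2.99e-06) and 50.9-fold higher in IZ (5.67 ± 0.384, adjusted p = 3.96e-06). The 3 CD45.1 IZ libraries held 66 Fxyd2 counts together.

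Retnla varied widely among resident libraries, with coefficients of variation of 68.6% in RZ and 70.5% in IZ. It was 29.3, 167 and 105.1 CPM in CD45.2 RZ and 7.39, 53.5 and 57.0 CPM in CD45.2 IZ, so that S106 and S107 (replicate 1) were the lowest, whereas for Vsig4 they were the highest. In CD45.1 it was 1.13, 0.550 and 1.87 CPM in RZ and 0.181, 0.799 and 0.0770 CPM in IZ. The log2 fold change was 6.42 ± 0.982 (adjusted p = 0.000542) in RZ and 6.86 ± 1.06 (adjusted p = 0.00102) in IZ. It was 5.84 in RZ without CD45.2 RZ replicate 2 and 8.23 in IZ without CD45.1 IZ replicate 2. With the heart muscle level as a covariate it was 5.0 (adjusted p = 0.0574) in RZ and 5.32 (adjusted p = 0.111) in IZ, and Retnla was no longer called. Retnla is also made by fat tissue in mice. The 5 fat cell genes together reached at most 0.0963 CPM in any library. The part of fat or muscle RNA in the Retnla difference was not tested. The study singles out Retnla on these samples, so its direction is not independent evidence.

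Pf4 stood apart from the other 7. It lay at 765, 967 and 651 CPM in CD45.2 RZ and at 1385, 1025 and 1034 CPM in CD45.1 RZ, so the resident libraries were lower without overlap (20.2% of all genes were), but the test was not passed (log2 fold change -0.53 ± 0.299, adjusted p = 0.194). In IZ the groups overlapped (CD45.2 was lower without overlap for 19.5% of all genes there), at 856, 623 and 631 CPM in CD45.2 and 1023, 387 and 634 CPM in CD45.1 (log2 fold change 0.05 ± 0.298, adjusted p = 0.93). Platelets are the best known source of Pf4. Of 12 genes of platelets and megakaryocytes, 9 to 11 lay under 1 CPM in every library of a group, and the sum (22.2 to 466 CPM over the 12 libraries) consisted mostly of Ppbp, the neighboring chemokine gene. Ppbp had a mean of 349 ± 160 CPM in CD45.1 RZ, 183 ± 99.2 in CD45.1 IZ, 30.49 ± 15 in CD45.2 RZ and 74.4 ± 41.8 in CD45.2 IZ (SD, n = 3 each). Gp9 reached at most 0.329 CPM and Itga2b at most 1.91 CPM, while Pf4 was at 386.6 CPM or more in every library. The part of platelet RNA in the Pf4 level was not tested.

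**Figure D2:**
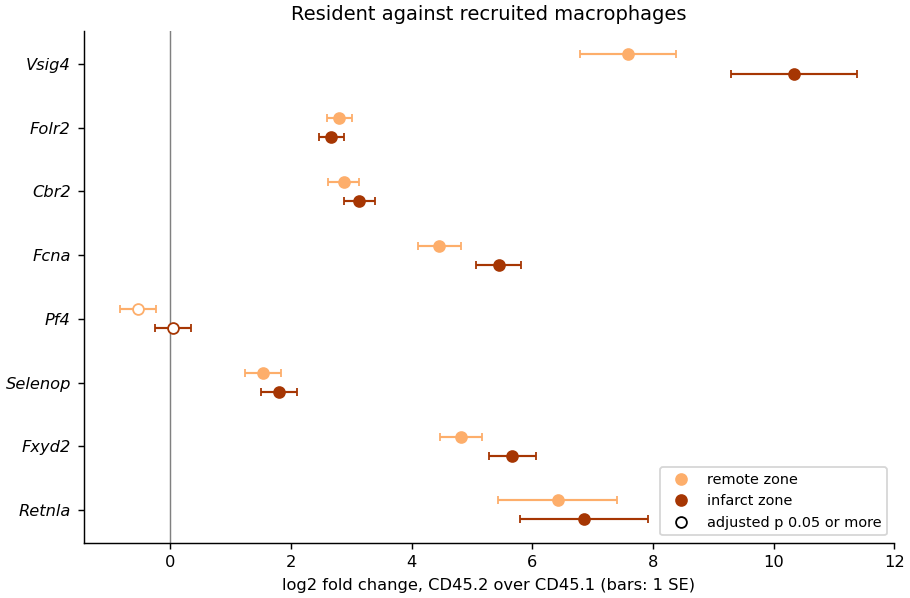
Log2 fold change of CD45.2 over CD45.1 macrophages (bars, 1 SE) for each gene in RZ and IZ. Filled points passed an adjusted p of 0.05, and Pf4 is the gene with open points, at -0.53 and 0.05.

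Per kilobase of exon the order of the genes differed between the populations. In CD45.2 RZ the highest were Selenop at 1375 ± 338 CPM per kb, Pf4 at 1102 ± 222 and Cbr2 at 1008 ± 140 (SD, n = 3), whose libraries overlapped. Folr2 followed at 421.5 ± 15.5 CPM per kb, clear of its neighbors. Fcna at 186 ± 16.2, Retnla at 168 ± 115.1 and Vsig4 at 133 ± 98.2 CPM per kb could not be ranked, since their libraries overlapped, and Fxyd2 was lowest at 12.5 ± 3.58. In CD45.2 IZ, Pf4 (975 ± 184), Selenop (704 ± 140 CPM per kb) and Cbr2 (527 ± 60.5) led, with Selenop overlapping Cbr2.

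In CD45.1 RZ, Pf4 was far above the rest at 1592 ± 284 CPM per kb, followed by Selenop at 472.5 ± 193, Cbr2 at 138 ± 42.6 and Folr2 at 60.6 ± 15.5. The libraries of these 4 genes did not overlap, nor did those of Fcna, at 8.46 ± 4.02. Retnla followed at 1.98 ± 1.10 and Fxyd2 at 0.441 ± 0.0591 CPM per kb, without overlap between them, and Vsig4 at 0.693 ± 0.734 overlapped both. Pf4 also headed the order in recruited cells of the other zone, at 945 ± 445 CPM per kb in CD45.1 IZ against 202 ± 44.6 for Selenop. The length used is the union of all exons, which for Fxyd2 (4005 bases from 13 transcripts) may exceed the length expressed here. Together the 8 genes took 0.656% to 0.842% of all counts in CD45.2 RZ, 0.382% to 0.476% in CD45.2 IZ, 0.215% to 0.34% in CD45.1 RZ and 0.0915% to 0.17% in CD45.1 IZ.

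Between zones, the mean level of each of the 8 genes was lower in IZ than in RZ in both populations, but 0 of the 8 passed the adjusted test in either, although this call depended on the fit. Of all genes tested with edgeR, 0% passed between zones in recruited and 1.76% in resident macrophages (0.293% as lower in IZ), with 1486 and 2963 genes at an unadjusted p under 0.05. Among the 8 genes, 7 were at an unadjusted p under 0.05 in recruited macrophages and 6 in resident macrophages. The IZ libraries lay below the RZ libraries without overlap for 7 of the 8 in recruited macrophages (8.5% of all genes, with 7.04% above) and for 6 of the 8 in resident macrophages (8.93% of all genes). The median log2 fold change of the 8 was -1.5 in recruited and -1.0 in resident macrophages, beside -0.002 and 0.017 over all genes.

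In resident macrophages the log2 fold change of infarct over remote zone was -0.81 ± 0.193 (adjusted p = 0.0641) for Folr2, with levels of 630 to 677 CPM in RZ and 314 to 446 CPM in IZ. It was -0.93 ± 0.237 (adjusted p = 0.0787) for Cbr2 and -1.11 ± 0.299 (adjusted p = 0.0946) for Fxyd2. Fcna (-1.02 ± 0.306, adjusted p = 0.128), Selenop (-0.97 ± 0.295, adjusted p = 0.137) and Vsig4 (-1.57 ± 0.592, adjusted p = 0.223) had differences of similar size without overlap. The fitted IZ level of these 6 genes was between 0.336 and 0.572 of the RZ level, and that of Vsig4 depended on S106, without which its log2 fold change was -0.77. Retnla (-1.35 ± 0.767, adjusted p = 0.424) and Pf4 (-0.18 ± 0.298, adjusted p = 0.828) overlapped between zones.

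In recruited macrophages the largest difference was that of Vsig4, at -4.32 ± 1.25 (adjusted p = 0.408), which rests on 161 counts in RZ and 7 in IZ. Fcna was at 0.25 of its remote level (log2 fold change -2.00 ± 0.333, adjusted p = 0.184) and Fxyd2 at 0.258 (-1.95 ± 0.365, adjusted p = 0.216). Smaller differences without overlap were seen for Selenop (-1.22 ± 0.297), Cbr2 (-1.19 ± 0.239), Pf4 (-0.75 ± 0.30) and Folr2 (-0.68 ± 0.193), with adjusted p-values of 0.224 to 0.567. Retnla overlapped between zones (-1.79 ± 1.07, adjusted p = 0.766).

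Whether the zone comparison crossed the threshold depended on the test. DESeq2 called 5 of the 8 in recruited macrophages (Vsig4, Cbr2, Fcna, Selenop and Fxyd2, with 1.01% of all genes) and 5 in resident macrophages (Folr2, Cbr2, Fcna, Selenop and Fxyd2, with 6.15% of all genes), all lower in IZ. Without libraries S104 to S107, edgeR called Fxyd2 in resident macrophages (log2 fold change -1.11, adjusted p = 0.0389, with 2.08% of all genes) and 0 of the 8 in recruited macrophages. With sex and library set as covariates, a fit chosen after seeing the data that gives each of 3 sets of 4 libraries (S104 to S107, S108 to S111 and S112 to S115, 1 of each group) its own level, edgeR called 4 of the 8 in recruited macrophages (Vsig4, Cbr2, Fcna and Fxyd2, with 0.314% of all genes) and 6 in resident macrophages (all but Pf4 and Retnla, with 7.76% of all genes). Without CD45.2 RZ replicate 1 alone, 3 of the 8 were called in resident macrophages (Folr2, Selenop and Fxyd2, with 5.61% of all genes), and without CD45.1 RZ replicate 1, Fcna was called in recruited (adjusted p = 0.0205, with 0.0102% of all genes) and resident macrophages (adjusted p = 0.0477, with 1.25%). Without CD45.1 RZ replicate 3, Folr2 and Cbr2 were called in resident macrophages (1.83% of all genes), and without CD45.2 IZ replicate 3, Fxyd2 (1.09%).

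**Figure D3:**
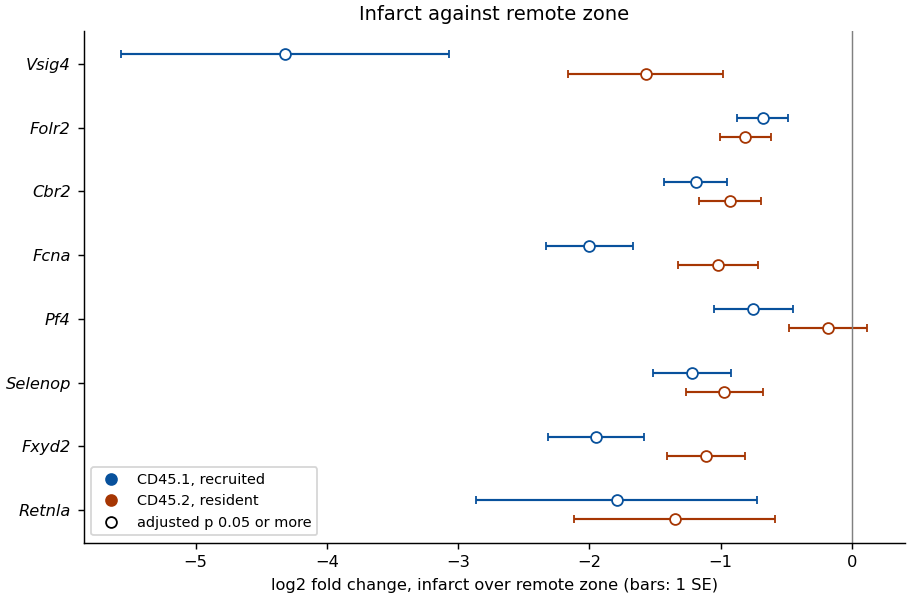
Log2 fold change of the infarct over the remote zone (bars, 1 SE) for each gene in each population, CD45.1 and CD45.2. All 16 points lie below 0 and all are open, since none passed an adjusted p of 0.05.

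Other genes moved with the zone in the same resident libraries. Of 20 genes of classical monocytes, 11 were higher in CD45.2 IZ than in CD45.2 RZ (1.46% of all genes were) and 0 were lower, with a median log2 fold change of 1.94. Clec4e, a receptor for mycobacterial and damaged-cell ligands, rose by 2.28 ± 0.178 on the log2 scale (adjusted p = 0.000319), the chitinase-like gene Chil3 by 2.18 ± 0.273 (adjusted p = 0.00232) and Hp, which encodes haptoglobin, by 1.98 ± 0.267 (adjusted p = 0.00354). In recruited macrophages 0 of the 20 passed and their median was 0.10. Of 28 other genes of tissue macrophages, 0 were higher and 1 was lower in CD45.2 IZ (0.293% of all genes were). Their median log2 fold change was -0.78, and -0.68 in recruited macrophages, where 0 passed. The part of cells rich in monocyte genes among the CD45.2 IZ cells was not tested.

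The difference between the zone effects of the populations was itself not detected for any of the 8, with adjusted p = 1 for each in edgeR. The zone effect of resident minus that of recruited macrophages was 2.75 for Vsig4, 0.98 for Fcna, 0.85 for Fxyd2, 0.58 for Pf4, 0.44 for Retnla, 0.26 for Cbr2 and Selenop and -0.13 for Folr2 on the log2 scale. In edgeR, 1 of the 8 (Fcna) was at an unadjusted p under 0.05, as were 821 of all 18773 genes, and DESeq2 and limma-voom called 0 of the 8. For 7 of the 8 the ratio of resident to recruited levels was larger in IZ, by less than the spread between libraries could show.

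Profiles over the libraries differed among the 8 genes. Each gene's log2 CPM was centred on its own mean over the 12 libraries, and profiles were compared by the root mean square difference, which takes no account of the overall level. Folr2 and Cbr2 were the closest pair, at 0.265, and Fcna and Fxyd2 the next, at 0.44. Vsig4 and Pf4 were the farthest apart, at 4.62. The measure grows with the gap between populations, which was widest for Vsig4.

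**Figure D4:**
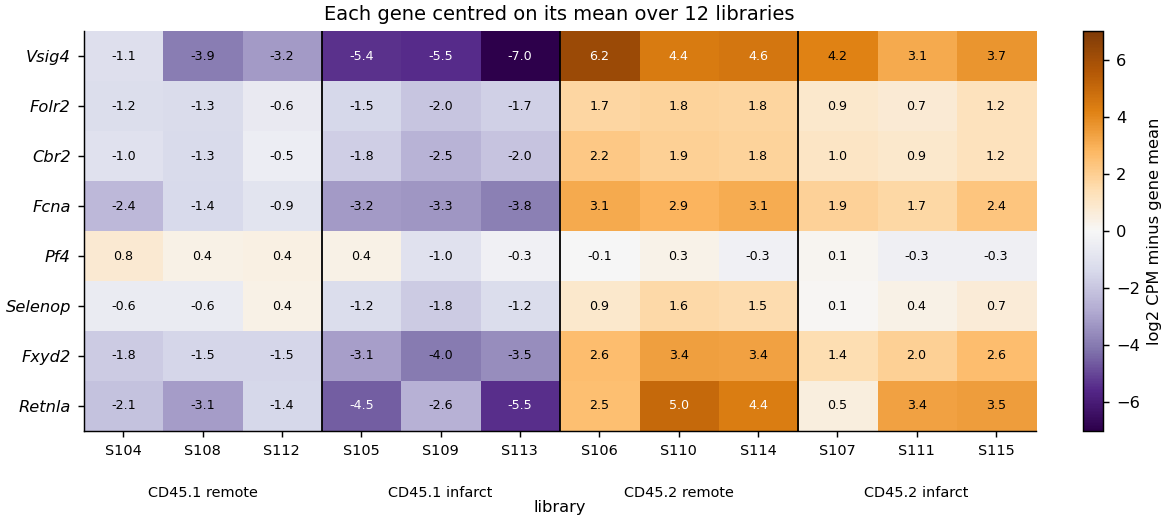
Log2 CPM of each gene minus its mean over the 12 libraries, with libraries ordered by group. Vsig4 ranges from -7.0 to 6.2, Folr2 from -2.0 to 1.8 and Pf4 from -1.0 to 0.8, and in CD45.2 RZ the first library (S106) is the highest for Vsig4 and the lowest for Retnla.

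Among 13932 other genes with a mean of at least 1 CPM, the profile closest to Folr2 after its overlapping partner Gm10602 (0.0767) was that of Rac3, a small GTPase, at 0.152, followed by Smagp at 0.201. Cbr2 was closest to Gas6, a ligand of the receptors that take up dying cells, and to Fcgrt, the neonatal Fc receptor, both at 0.258, and then to Smagp at 0.263. Fcna was closest to Egfr, the receptor of epidermal growth factor, at 0.23, then to its partner Fcnaos (0.267) and to Gfra2, a receptor of the GDNF family, at 0.412. Selenop followed its partner Ccdc152 at 0.065, Cables1 at 0.156 and Pdk2, a pyruvate dehydrogenase kinase, at 0.221.

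Fxyd2 was closest to Slc16a14 at 0.39, Egfr at 0.474 and Ctsf, a cathepsin, at 0.482. Vsig4 and Retnla had no such close neighbors: the nearest to Vsig4 were Ildr2 at 1.31, the complement component C6 at 1.33 and Timd4, a receptor for dying cells, at 1.39, all with CD45.1 means under 1 CPM, and those nearest to Retnla were the urea transporter Slc14a1 at 0.813, Lilra5 at 0.882 and C1qtnf1 at 0.904. Pf4, with its narrow range, was closest to ENSMUSG00000118471 at 0.197, Guca1a, whose levels nearly coincide with those of that gene, at 0.198 and Anapc13 at 0.24. The mean profile of the 8 was closest to Cd163, the receptor for haptoglobin bound to hemoglobin, at 0.28, followed by Alox5, a lipoxygenase, at 0.343 and Gprc5c at 0.398. Cd163 had means of 147, 42.9, 1424 and 687 CPM in CD45.1 RZ, CD45.1 IZ, CD45.2 RZ and CD45.2 IZ.

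Most other genes of tissue macrophages were also higher in resident cells. Of 28 such genes, 20 rose and 1 fell in CD45.2 relative to CD45.1 in RZ. In IZ 22 rose and 0 fell, and the medians in RZ and IZ were 1.84 and 1.79 on the log2 scale. Of all genes, 16.2% were higher and 15.8% lower in RZ, against 12% and 7.56% in IZ. This list and that of the monocyte genes were chosen with earlier results of these data known. Mgl2, a lectin receptor, rose by 5.45 ± 0.264 in RZ (adjusted p = 4.84e-07) and 5.42 ± 0.265 in IZ (adjusted p = 7.01e-07). Timd4 had means of 161 CPM in CD45.2 RZ (adjusted p = 4.84e-07) and 63.9 CPM in CD45.2 IZ (adjusted p = 1.06e-06), against 0.0861 and 0.0235 CPM in CD45.1. Colec12, a scavenger receptor, rose by 4.67 ± 0.277 (adjusted p = 9.38e-07) in RZ and Lyve1, a receptor for hyaluronan, by 6.47 ± 0.386 (adjusted p = 1.57e-06) in IZ. The 1 lower gene was Cd5l (-2.74 ± 0.515, adjusted p = 0.00206), a secreted protein of tissue macrophages. Timd4, Lyve1 and Cd163 are also singled out by the study on these samples, so their direction is not independent evidence.

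The 20 monocyte genes went the other way, with 17 lower and 1 higher in resident cells of each zone and medians of -4.15 and -2.03, beside 15.8% and 7.56% of all genes that were lower. In RZ the log2 fold change was -3.49 ± 0.187 for Clec4e (adjusted p = 4.84e-07) and -4.18 ± 0.264 for Mcemp1 (adjusted p = 1.33e-06), and in IZ -2.84 ± 0.28 for Chil3 (adjusted p = 4.23e-05). The 1 higher gene was the interferon-induced Ifi27l2a (1.63 ± 0.454, adjusted p = 0.0178 in RZ).

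Genes of the same families or pathways as the 8 did not share 1 direction. Their counts stand beside 16.2% higher and 15.8% lower of all genes in RZ and 12% and 7.56% in IZ, and shares near these, as for the carbonyl reductases in RZ and the folate genes, are no result about the family. Of 7 tested genes of the ficolins and the lectin pathway, 4 were higher in CD45.2 in either zone and 1, Fcnb, was lower. In the remote zone C2, a protease of the lectin and classical pathways, rose by 5.88 ± 0.31 on the log2 scale (adjusted p = 4.84e-07), Colec12 by 4.67 and C4b by 4.54 ± 0.364 (adjusted p = 5.34e-06), the last to 1651 ± 75.0 CPM in CD45.2 RZ. C2 shares exon bases with 2 neighboring genes, and C4b has a near-identical paralog. Fcnb, which encodes ficolin B and is known from myeloid cells of the bone marrow, fell by 3.74 in RZ (log2 fold change -3.74 ± 0.524, adjusted p = 0.000295) and was at 2.10 ± 1.09 CPM in CD45.1 RZ and 0.155 ± 0.066 CPM in CD45.2 RZ.

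Around Vsig4, resident cells had 2 of 11 complement receptors and C3-related genes higher and 5 lower in RZ, and 2 and 4 in IZ. In RZ, Itgax, a subunit of complement receptor 4, fell by 1.63 (log2 fold change -1.63 ± 0.224, adjusted p = 0.000259) and C3 itself by 1.53 (-1.53 ± 0.25, adjusted p = 0.000841). Around Folr2, Slc46a1, the proton-coupled folate transporter, was the 1 gene of 10 tested (12 listed) that was higher (log2 fold change 2.10 ± 0.298, adjusted p = 0.000326 in RZ and 1.83 ± 0.297, adjusted p = 0.00135 in IZ), and 0 were lower.

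Of 9 carbonyl reductases and related enzymes, resident cells had 1 higher and 2 lower in RZ, and 3 and 0 in IZ. Cbr3 rose in both zones (log2 fold change 0.55 ± 0.187, adjusted p = 0.0427, and 1.01 ± 0.19, adjusted p = 0.00341), whereas the retinol dehydrogenase Dhrs9 was lower in RZ (-4.0 ± 0.755, adjusted p = 0.00209), as was the aldehyde reductase gene Akr1a1 (-0.58 ± 0.145, adjusted p = 0.0101). Dcxr (0.54 ± 0.139, adjusted p = 0.0191) and Cbr1 (0.81 ± 0.231, adjusted p = 0.03) were the others that rose in IZ. Around Selenop, 1 of 21 selenoproteins and factors of selenocysteine insertion was higher in either zone, Selenom (2.07 ± 0.233, adjusted p = 6.1e-05 in RZ), and 8 and 2 were lower. In RZ, Msrb1, a methionine sulfoxide reductase, fell by 2.69 (log2 fold change -2.69 ± 0.302, adjusted p = 6.08e-05). Also in RZ, Sephs2, which makes the selenium donor for selenocysteine, fell by 1.63 (-1.63 ± 0.221, adjusted p = 0.00024). Lrp8, a receptor for selenoprotein P, fell by 1.81 in RZ (-1.81 ± 0.473, adjusted p = 0.0131) and was not called in IZ.

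Of 11 FXYD proteins and sodium pump subunits, resident cells had 1 higher and 3 lower in RZ, and 1 and 1 in IZ. Fxyd3, which shares exon bases with Lgi4, rose in both (log2 fold change 2.27 ± 0.477, adjusted p = 0.00404, and 2.53 ± 0.49, adjusted p = 0.00411) at group means of 0.434 to 3.03 CPM. The regulator gene Fxyd5 was lower in RZ (-0.59 ± 0.115, adjusted p = 0.00265), where Fxyd2 was higher. Around Retnla, 6 of 15 genes of the resistin family and of alternative activation were higher and 5 lower in RZ, and 4 and 4 in IZ. In RZ, Mgl2 and Mrc1, the mannose receptor, were higher (1.48 ± 0.174, adjusted p = 8.39e-05 for Mrc1). Lower in RZ were Chil3 (-4.98 ± 0.309, adjusted p = 1.14e-06) and Il4ra, a receptor subunit for interleukin 4 (-1.67 ± 0.191, adjusted p = 7.27e-05). Around Pf4, 2 of 5 CXC chemokine genes of its locus were lower in RZ, Cxcl3 (-5.04 ± 0.668, adjusted p = 0.000205) and Ppbp (-3.52 ± 0.562, adjusted p = 0.00073), and 1, Cxcl3 (-2.06 ± 0.582, adjusted p = 0.0288), in IZ. Of the 5, 0 were higher. Exons of Sephs2, Lrp8 and Il4ra also overlap another gene, as do those of Gas6, and Chil3 and Mgl2 have close paralogs.

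**Figure D5:**
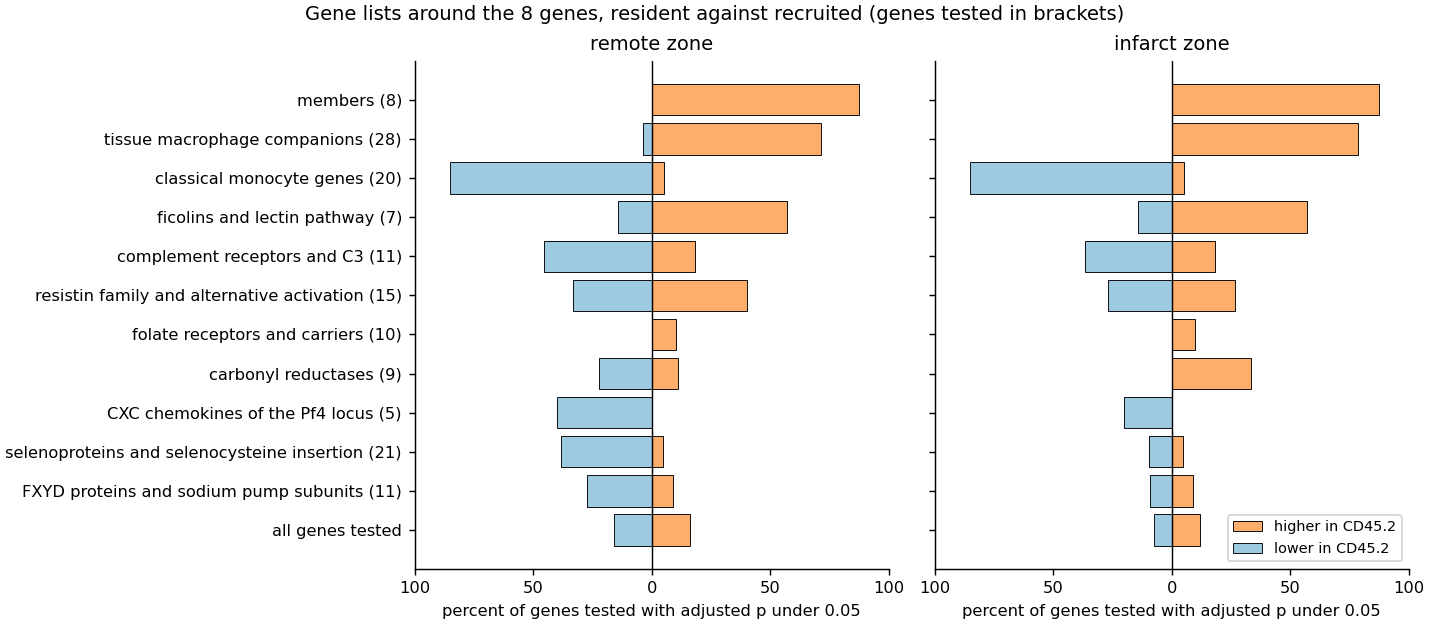
Percent of the tested genes of each list that were higher (right) or lower (left) in CD45.2 than in CD45.1 macrophages at an adjusted p under 0.05, in RZ and IZ, with all genes tested as the last bar. The 8 genes, with 7 higher, stand beside tissue macrophage genes with 20 and 22 of 28 higher and monocyte genes with 17 of 20 lower.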

How the data were processed

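From these SMART-Seq v4 libraries the authors deposited 1 table of raw counts per gene. The submitters' notes list HISAT2 2.2.1, featureCounts in Subread 2.0.1 and the build GRCm38.p6. A read pair that touched several genes was counted for each, and strand and molecular identifiers were not used. GENCODE M21 gave symbols (55141 of 55487 genes) and numbers of transcripts. Exons and gene lengths came from the deposited table, and RefSeq gave promoters. No column was left unused.

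The main test was the quasi-likelihood test of edgeR 4.0.16 under R 4.3.3, with 1 mean per group over all 12 libraries and TMM scaling. The filter filterByExpr (minimum count 10, total 15) kept 18773 genes. Each of the 5 comparisons was adjusted by the Benjamini-Hochberg method over these genes, at 0.05. The SE was obtained as |log2 fold change| over the root of the F statistic. The interval of a pooled ratio is an exact 95% one for counting error only. Profiles used log2 CPM with a prior count of 2.

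The members and the gene lists were chosen with earlier results of these data known. List genes were named from the 3 with the smallest adjusted p in a comparison, or where a statement turns on them (some of these are not reported here), and for each profile the 3 nearest genes were named. Alternatives were DESeq2 1.42.0, limma-voom (3.58.1) with quality weights, other filters and scaling, covariates (heart muscle level, fibroblast level, library set), fits of the compared libraries only, and fits without libraries. A fit with the sex of the libraries (from Xist and Y-linked counts) and library set was chosen after seeing the data. The edgeR step was tested on simulated data.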

Additional observations from a re-analysis of the deposited data

How the results depend on the processing

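The 7 calls between populations held in both zones under DESeq2, limma-voom, other filters and scaling, and without any 1 library (7 to 7 of 8 called). With the heart muscle level as a covariate 5 were called in each zone. Between zones the count of genes called moved. In recruited macrophages it was 0 in edgeR, 5 with DESeq2, 2 with no filter on low counts and 4 with sex and library set as covariates, and 0 to 1 without 1 library. In resident macrophages it was 0 in edgeR, 5 with DESeq2 and 3 with limma-voom. It was 3 with no filter (1.31% of the 31519 genes then tested) and 1 with at least 1 CPM in 3 libraries (2.54% of 14674). Covariates gave 4 with the set S104 to S107, 2 with the fibroblast level and 6 with sex and library set. It was 1 without libraries S104 to S107, and 0 to 3 without 1 library. For the contrast of zone effects between populations it was 0 throughout, also without 1 library (0 to 0). The sign of that difference for Folr2 changed to 0.06 without S104 to S107. Without 1 library at a time, Pf4 in the infarct zone ranged from -0.24 to 0.45, and the contrast of zone effects from -0.01 to 0.44 for Cbr2, -0.13 to 0.40 for Selenop and -0.10 to 1.81 for Retnla. The cause was not tested in any of these cases.

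Over all genes, calls in the remote zone numbered 6012 (1597 with the heart muscle covariate). In the infarct zone they numbered 3666 (6675 with limma-voom, 938 with heart muscle, 5741 with sex and set), and between zones 0 in recruited (190 with DESeq2, 14 with no filter, 12 with the set covariate, 5 without the set, 16 with fibroblast level, 59 with sex and set) and 330 in resident macrophages (1154 with DESeq2, 674 with limma-voom, 1121 with the set covariate, 580 with fibroblast level, 26 with only the 6 libraries, 1457 with sex and set). The share of these 330 that was higher, 83.3%, was 62.3% with DESeq2, 62% with limma-voom, 68.3% with the set covariate and 65.2% with sex and set. For the contrast of zone effects 0 genes were called in edgeR, 163 with DESeq2, 25 with limma-voom, 30 with no filter, 4 at 1 CPM, 48 with the set covariate, 35 without the set, 28 with heart muscle, 25 with fibroblast level and 94 with sex and set. Leaving out 1 library gave 4062 to 7228, 2173 to 4356, 0 to 2, 124 to 1099 and 0 to 60 calls in the 5 comparisons.

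No analysis was paired by animal, because the labels give no replicate or animal numbers that the groups share (replicate numbers here follow accession order). The study sorted both populations from the remote and the ischemic myocardium of chimeric mice, so the groups may share hearts. The main test leaves any such pairing out. The fit with sex and library set gives each run of 4 libraries, 1 per group, its own level, but nothing in the labels says that a run came from the same animals. Low counts limit mainly the recruited libraries of the infarct zone, where Vsig4 had 7, Retnla 47 and Fxyd2 66 counts in all. Those libraries held 42996887 to 55329986 counts over all genes.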
